A study of Mus musculus with 4 samples.

Results

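The cells described here are mural cells of mouse long bone that carry Rgs5, a regulator of G protein signaling that is a common marker of pericytes. A barcode was taken as a member when it held at least 5 counts of Rgs5 and at least 1 count of Pdgfrb, the receptor that mural cells need for recruitment to vessels. Barcodes with at least 3 counts of Myh11 together with at least 20 counts of Acta2 per 10000 UMIs were set aside as contractile smooth muscle cells, and barcodes with a count of Cdh5 (endothelial) or Ptprc (leukocyte) were left out. The rule found 618 members among 24739 barcodes that passed the filter on quality, 227 and 255 in the 2 Lats2iECKO libraries and 70 and 66 in the 2 control libraries. The cells were thus selected on counts of Rgs5, Pdgfrb, Myh11, Acta2, Cdh5 and Ptprc. The levels of these genes are given as a description, and other contractile genes travel with Myh11 and Acta2. The members are called Rgs5 mural cells below.

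The libraries hold droplet-based single-cell transcriptomes of femur and tibia metaphysis, depleted of blood cells, taken from mice aged 12 weeks. All animals carried Lats2 alleles flanked by loxP sites on a C57BL/6 background and received 1 mg of tamoxifen daily for 5 days at 4 to 5 weeks of age. Lats2iECKO mice also carried the Cdh5-CreERT2 transgene, whose promoter is active in endothelial cells, while the littermate controls lacked Cre, so that the design does not delete Lats2 in mural cells of either group. Both sexes were used, and nothing in the labels ties a library to 1 animal or to a pool, so p-values measure the spread between these libraries only.

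Mural cells sit on the outer face of vessels. Smooth muscle cells wrap arteries and carry a dense contractile apparatus, while pericytes lie on capillaries, share the basement membrane with the endothelium and answer to endothelial signals such as platelet-derived growth factor B and the Notch ligands. In bone marrow, cells around vessels also make factors that hold blood stem cells, among them the chemokine Cxcl12, and in several organs mural cells are a source of matrix in scars.

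Libraries held between 69636600 and 85899100 UMIs. Members had medians of 7352 and 7924 UMIs in Lats2iECKO and 5775.5 and 5543 in controls, and their median mitochondrial share was 6.99% and 6.80% against 4.85% and 5.43%. An estimate of free RNA from markers of other cell types gave 8.25% and 13.4% of the members' UMIs in Lats2iECKO and 20.1% and 5.96% in controls. Doublets and the members' own expression of those markers, which include Spp1, can raise it, so it is not a measured share. Barcodes that a doublet score called were kept, and they were 5.73% and 4.31% of members in Lats2iECKO and 14.3% and 7.58% in controls, against 4.11% to 5.49% of all filtered barcodes. The share of all filtered barcodes was set in advance by the size of each library, so it is not an observed rate. Each pair of libraries shared 6 to 16 filtered barcodes and 0 members. Of the other cells' marker lists, the 11 reticular stroma genes summed to 1576 and 1038 CPM (each gene's share of the library's summed member counts, scaled to 1e6) in Lats2iECKO members and 4686 and 7779 CPM in control members. The 14 chondrocyte genes summed to 2951 and 5481 CPM against 8598 and 1710 CPM, the 11 osteoblast genes, which include Spp1, to 7456 and 7389 CPM against 5070 and 4581 CPM, or without Spp1 to 893 and 668 CPM against 1682 and 4120 CPM, and the 14 endothelial genes to between 233 and 357 CPM. The 7 erythroid genes summed to 627 and 640 CPM against 265 and 341 CPM, and leukocyte markers to at most 23.4 CPM. Whether free RNA, doublets or the members' own RNA gave these sums was not tested. Cre-ERT2 had 1 count in the members of Lats2iECKO replicate 1 and none in the others, while it stood at 54.5 and 48.8 CPM in Lats2iECKO endothelial cells. Lats2 itself stood at 48.7 and 57.7 CPM in Lats2iECKO members and at 54.9 and 72.7 CPM in control members, with overlapping libraries.

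Rgs5 mural cells took a larger share of the Lats2iECKO libraries, and the excess lay in cells without a count of Myh11, the smooth muscle myosin heavy chain. They made up 4.42% of filtered barcodes in Lats2iECKO replicate 1 (exact 95% interval 3.88% to 5.02%, which covers counting error only) and 4.32% in replicate 2 (3.82% to 4.87%). The shares were 1.02% (0.795% to 1.29%) in control replicate 1 and 0.965% (0.747% to 1.23%) in control replicate 2. The means were 4.37% ± 0.0704 (SD, n = 2) and 0.992% ± 0.0383, a ratio of 4.41, and both Lats2iECKO libraries lay above both controls. A two-sided exact permutation test over libraries gives p = 0.333, which is the smallest that 2 libraries against 2 allow.

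Members without Myh11 numbered 177 and 197 in Lats2iECKO but 10 and 16 in controls, that is 78.0% and 77.3% of members against 14.3% and 24.2%. As a share of filtered barcodes they stood at 3.45% and 3.34% against 0.146% and 0.234%, a ratio of the means of 17.9. Members with Myh11 stood at 0.974% and 0.983% against 0.874% and 0.731%, a ratio of 1.22 (exact permutation p = 0.333). In a library of dissociated tissue, more cells of a class and better recovery of it cannot be told apart. Contractile smooth muscle cells, which the rule set aside, were at 3.39% and 3.19% in Lats2iECKO and 3.23% and 3.57% in controls, and these libraries overlapped (exact permutation p = 0.667). Depth bears on whether Myh11 is seen at all: with every cell thinned to 2000 UMIs, which left 223, 249, 69 and 65 members, Myh11 was detected in 14.8% and 12.0% of Lats2iECKO members and in 66.7% and 53.8% of control members, and in at most 0.679% of endothelial cells, which should lack it. The 26 control members without Myh11 were unlike their Lats2iECKO counterparts, with Cxcl12 at 4969 and 9655 CPM against 275 and 76.1 CPM and Spp1 at a median of 1.03 and 2.46 per 10000 UMIs per cell against 46.3 and 32.7.

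**Figure D1:**
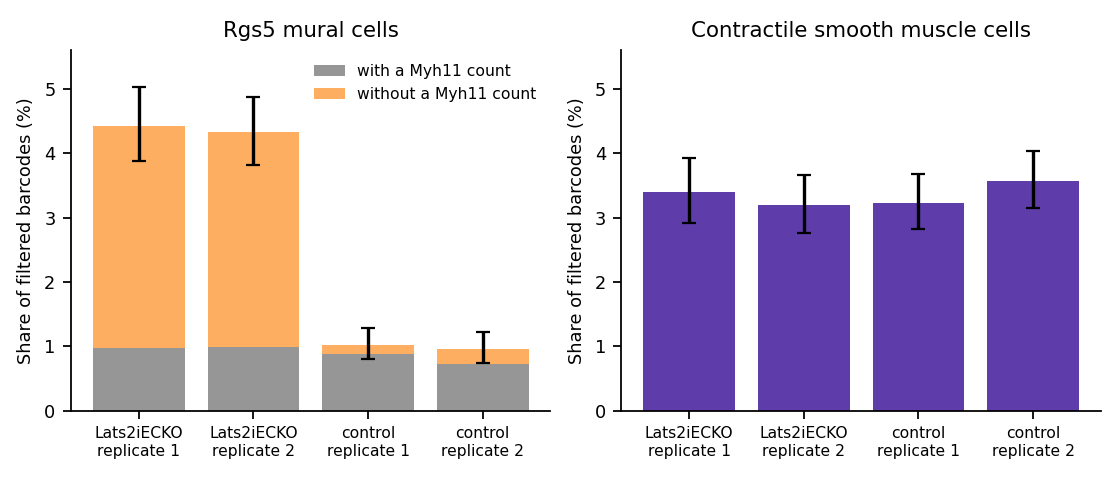
Share of filtered barcodes (%) in each library for Rgs5 mural cells, stacked by whether a Myh11 count was found, and for contractile smooth muscle cells. Bars show exact 95% intervals of the whole class; the 2 Lats2iECKO libraries sit above 4% for Rgs5 mural cells and the 2 controls near 1%, while contractile smooth muscle cells lie between 3.19% and 3.57% in all 4.

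The levels of the genes that chose the cells were as follows. Rgs5 (ENSMUSG00000026678, chr1:169483036-169524887 of GRCm39) stood at 4413 and 4993 CPM in Lats2iECKO members and at 10762 and 13748 CPM in controls, with medians of 37.4 and 33.0 per 10000 UMIs per cell against 124 and 141. Among members with Myh11 these medians were 85.1 and 49.1 against 150 and 170, and among those without it 32.1 and 29.8 against 8.31 and 34.2, where the genotypes overlapped. Pdgfrb stood at 935 and 962 CPM against 823 and 1003 CPM, with the genotypes overlapping. Myh11 stood at 91.2 and 58.5 CPM against 569 and 717 CPM, and Acta2, smooth muscle actin, at 925 and 855 CPM against 385 and 717 CPM. For Acta2 the medians per cell overlapped, at 3.09 and 1.64 per 10000 UMIs against 1.31 and 2.21, and the rule caps it only in cells with at least 3 counts of Myh11.

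Of the 6 genes given as markers of these cells, Rgs5 chose them and the others varied by genotype. Higd1b, a mitochondrial protein of pericytes, was present in all 4 libraries (136, 158, 200 and 281 CPM, Lats2iECKO first), as were Cygb, cytoglobin (778, 829, 393 and 424 CPM), and Aoc3, a vascular amine oxidase (331, 328, 169 and 276 CPM). Sorcs1, a sorting receptor, stood at 202 and 151 CPM in Lats2iECKO, at 37.6 CPM in control replicate 2 and at 0 in control replicate 1, where 3 counts would be 5.40 CPM. Cyp26b1, which breaks down retinoic acid, stood at 423 and 402 CPM against 28.8 and 90.3 CPM. At 2000 UMIs per cell, Cyp26b1 was detected in 36.8% and 34.9% of Lats2iECKO members and in 2.90% and 7.69% of control members, with at most 1.09% in endothelial cells. Cygb was detected in 69.5% and 78.3% of Lats2iECKO members and in 53.6% and 53.8% of control members, against at most 15.9% of contractile smooth muscle cells. Higd1b set only control members apart from smooth muscle cells (34.8% and 29.2% against 14.7% and 15.4%), since in Lats2iECKO it was at 22.9% and 25.7% against 24.1% and 24.6%. Aoc3, at 48.4% and 47.8% of Lats2iECKO and 27.5% and 44.6% of control members, was not above smooth muscle cells in either genotype (48.8% and 53.0%, and 63.8% and 61.7%). Sorcs1 was detected in 22.0% and 22.9% of Lats2iECKO members and in at most 1.76% of smooth muscle cells. Cygb, Sorcs1 and Cyp26b1 thus set Lats2iECKO members apart from smooth muscle cells, and Cygb and Higd1b set control members apart. At full depth, Higd1b had a count in 61.7% and 62% of control members with Myh11 but in 10% and 12.5% of those without it. The markers were given with the label, so their levels describe the cells and do not test it.

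Values on either side of the cut on Rgs5 are pooled over the 4 libraries. The 83 barcodes with 3 to under 5 Rgs5 counts that met the other terms held 9982 CPM of Cxcl12, 967 CPM of the leptin receptor Lepr and 21.9 CPM of Higd1b. The 46 members with 5 to under 7 counts held 2131, 279 and 23.2 CPM, and the 572 members with 7 or more held 504, 58.4 and 174 CPM, so that Higd1b was alike just inside and just outside. Cygb stood at 343, 511 and 751 CPM and Aoc3 at 200, 235 and 314 CPM in the same order. Cyp26b1 stood at 133, 188 and 360 CPM, while Sorcs1, at 124, 199 and 141 CPM, did not rise steadily with the Rgs5 count. Control libraries gave 18 and 18 of the 83 barcodes, 4 and 7 of the 46 and 66 and 59 of the 572, and the part of that mix in these values was not tested.

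Next, the members were compared between genotypes on counts summed per library (edgeR, with p adjusted over 5876 genes). With an adjusted p not above 0.05 and a change of 2-fold or more, 281 genes (4.78%) were higher and 328 (5.58%) lower in Lats2iECKO. By the adjusted p alone, which is the threshold used for gene lists below, 620 genes (10.6%) were higher and 731 (12.4%) lower. All 281 and 328 genes had both libraries of one genotype above both of the other. The thresholds nearly ensure this with 2 libraries against 2, so it is no separate support for the calls. The median log2 fold change over all genes tested was 0.0064. Since the share of cells without Myh11 differs so much between genotypes, the same test on members with Myh11 alone stands beside it. Those were 50 and 58 cells against 60 and 50, and 178 genes (3.15%) were higher and 201 (3.55%) lower at both thresholds, or 252 (4.45%) and 277 (4.90%) by the adjusted p alone, of 5657 tested. Of the 281 genes higher in all members, 113 were also called there (40.2%, and 63.5% of the 178), and of the 328 lower genes 150 were (45.7%, and 74.6% of the 201). Of those genes, 66 higher and 14 lower ones were not tested in that subset, and of the tested ones 52.6% and 47.8% were called. Even among members with Myh11, its median level was 3.94 and 2.18 per 10000 UMIs in Lats2iECKO against 7.19 and 7.99 in controls, so this subset narrows the difference in makeup without removing it. In members without Myh11, of which controls gave only 26, the same test called 38 genes (0.584% of 6504) higher and 124 (1.91%) lower, by either threshold. Named genes whose direction turned there are given beside their result or in the closing section. Where a list is also counted with 1 library left out, the shares of all genes higher and lower by the adjusted p were 6.04% and 7.90% without Lats2iECKO replicate 1, 6.04% and 7.46% without Lats2iECKO replicate 2, 11.7% and 12.0% without control replicate 1, and 9.99% and 11.1% without control replicate 2. They were 4.87% and 6.45% with DESeq2, 13.8% and 15.5% at a cut of 3 Rgs5 counts, 10.7% and 12.4% at a cut of 10, 15.7% and 17.0% with contractile smooth muscle cells kept, 11.8% and 13.9% without called doublets, and 11.8% and 13.7% with the replicate number as a block. At an unadjusted p of 0.05 they were 17.6% and 19.0%, and 13.2% and 13.6% in members with Myh11.

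**Figure D2:**
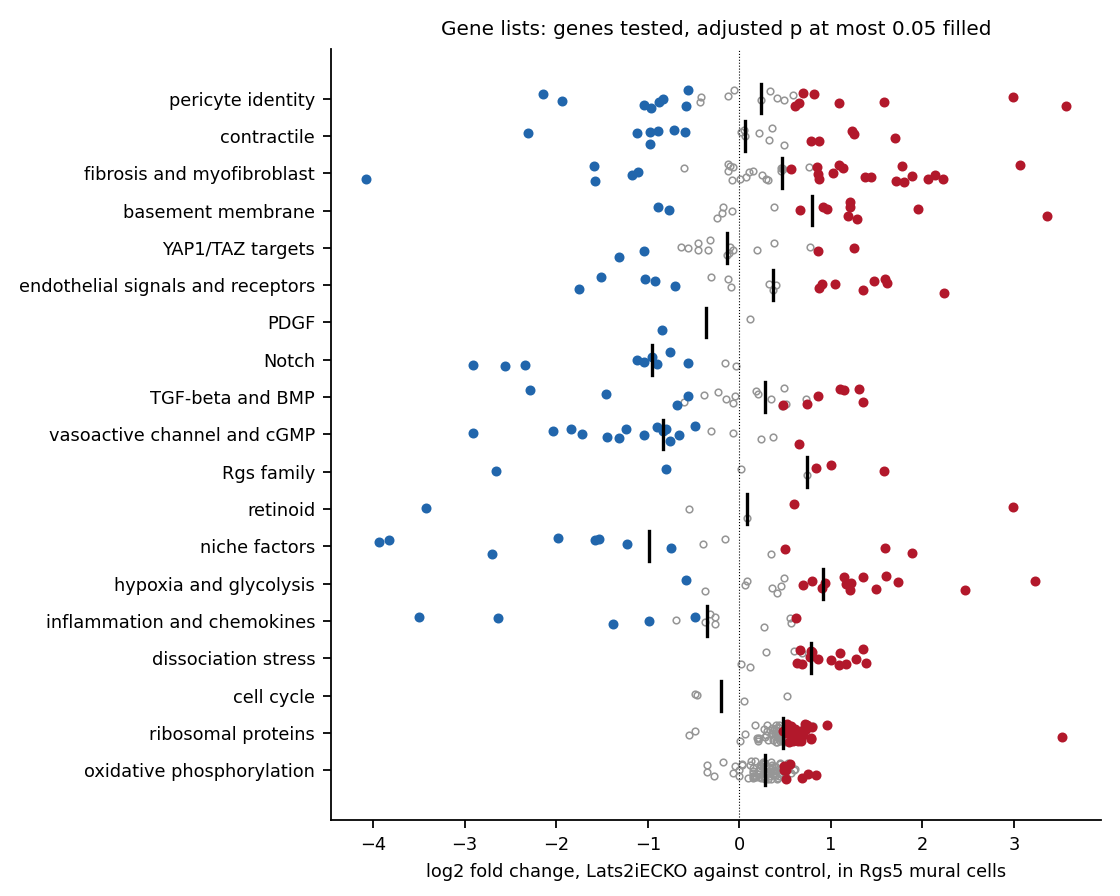
Log2 fold change of Lats2iECKO over control in Rgs5 mural cells for each tested gene of 19 lists, with the median of each list as a black bar. Filled points passed an adjusted p of 0.05, red where higher and blue where lower; the Notch and vasoactive lists lie mostly left of 0 and the hypoxia and dissociation stress lists right of it.

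Genes of the extracellular matrix were more often higher than lower. Of 40 tested genes of the fibrosis and myofibroblast list, 17 were higher, 5 lower and 18 did not pass, with a median log2 fold change of 0.46. The lower genes numbered 2 with DESeq2 or with at least 10 Rgs5 counts, and in members without Myh11 2 genes were higher and 1 lower. Thbs1, thrombospondin 1, a matrix protein that can activate latent TGF-beta, stood at 373 and 378 CPM in Lats2iECKO and 70.2 and 105 CPM in controls, a log2 fold change of 2.23 (standard error 0.19, adjusted p = 1.58e-05). Both Lats2iECKO libraries lay well above both controls. Timp3, an inhibitor of matrix proteases, stood at 1255 and 1207 CPM against 236 and 406 CPM (log2 fold change 2.06). Col6a3, a chain of the microfibrillar type VI collagen, stood at 1577 and 1601 CPM against 510 and 489 CPM (1.77). Col12a1, a collagen that ties fibrils together, stood at 539 and 680 CPM against 196 and 95.3 CPM (2.14). All 4 of these also rose in members with Myh11, with log2 fold changes of 2.73, 2.43, 1.56 and 1.60 in the same order. Mmp13, the collagenase of growing bone, stood at 364 and 656 CPM against 27.0 and 82.8 CPM (3.40, adjusted p = 7.55e-05) and was not tested in that subset.

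Not every matrix gene rose. Eln, elastin of arterial walls, stood at 11.4 and 12.1 CPM in Lats2iECKO and at 128 and 326 CPM in controls (log2 fold change −4.08, standard error 0.39, adjusted p = 2.79e-05), and Postn, periostin, at 112 and 105 CPM against 249 and 278 CPM (−1.17). Eln also fell in members with Myh11 (−2.49), where Postn, at −0.58, did not pass. In members without Myh11 the direction of Postn turned. The fibrillar collagen Col1a2 stood at 988 and 1085 CPM against 1257 and 5409 CPM and Col1a1 at 1222 and 1327 CPM against 1473 and 6776 CPM, so that control replicate 2 set both differences. Without it the log2 fold changes were −0.19 and −0.12 (adjusted p = 0.237 and 0.448), and without called doublets they were 0.61 and 1.46. Fibronectin, Fn1, stood at 1262 and 1031 CPM against 3515 and 208 CPM (log2 fold change −0.60, adjusted p = 0.586), and without control replicate 1 it was 2.56. The reason for the high level in control replicate 1 was not tested.

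Spp1 (ENSMUSG00000029304, chr5:104582165-104589235 of GRCm39) encodes osteopontin, a bone matrix protein. It stood at 6563 and 6721 CPM in Lats2iECKO and at 3387 and 461 CPM in controls, so that the controls lay far apart and control replicate 1 lay nearer to the Lats2iECKO libraries than to control replicate 2 on the log scale. The log2 fold change was 1.88 (standard error 0.58, adjusted p = 0.0344, but 0.385 with DESeq2). At 2000 UMIs per cell Spp1 was detected in 71.3% and 71.5% of Lats2iECKO members and in 14.5% and 24.6% of control members, against 12.4% to 17.2% of endothelial cells. In the control libraries endothelial cells had 12.4% and 14.6%, so that members lay near this background in control replicate 1 and above it in control replicate 2. Its level was high in Lats2iECKO members without Myh11, with medians of 46.3 and 32.7 per 10000 UMIs, and low in those with Myh11, at 0 and 1.10.

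Of 16 tested basement membrane genes, 9 were higher, 2 lower and 5 did not pass, with a median log2 fold change of 0.79. Col4a1, a chain of type IV collagen, the main sheet-forming collagen of that layer, stood at 3426 and 3597 CPM in Lats2iECKO and at 1551 and 1708 CPM in controls (log2 fold change 1.21, standard error 0.15, adjusted p = 1.31e-04). Its partner chain Col4a2 stood at 1993 and 2147 CPM against 922 and 1001 CPM (1.21). The libraries of each genotype lay close together for both. Lamb1, a laminin chain, stood at 232 and 225 CPM against 106 and 92.8 CPM (1.29), Lamc3, another laminin chain, at 90.7 and 97.8 CPM against 20.7 and 32.6 CPM (1.95), and Col15a1, a collagen of microvessel walls, at 147 and 115 CPM against 23.4 and 0 CPM (3.36, with an adjusted p of 0.293 under DESeq2). Lamb2 (126 and 112 CPM against 232 and 243 CPM, −0.89) and Lama4 (120 and 121 CPM against 196 and 248 CPM, −0.76), other laminin chains, were lower, though Lama4 had an adjusted p of 0.0594 without Lats2iECKO replicate 2. Among members with Myh11, 1 of these 16 genes, Col15a1, was higher and 0 lower (7 and 2 at an unadjusted p of 0.05). Col4a1 had 0.59 there (adjusted p = 0.105), and Lama2, a laminin chain that was higher in all members (1.19), had −0.21 (adjusted p = 0.559).

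Genes of hypoxia and glycolysis were higher as a group. The promoters of 3 of them are shown for ACGTG, which is 1 form of the core motif that the hypoxia-inducible factors bind. Of 22 tested genes, 14 were higher (8 with DESeq2), 1 lower and 7 did not pass, with a median log2 fold change of 0.92. Egln3, an oxygen-sensing prolyl hydroxylase, stood at 273 and 308 CPM in Lats2iECKO and at 7.20 and 67.7 CPM in controls (log2 fold change 3.23, standard error 0.42, adjusted p = 1.99e-04, and 0.112 with DESeq2). Bnip3, a mitochondrial protein of mitophagy, stood at 106 and 110 CPM against 21.6 and 20.1 CPM (2.47, standard error 0.24, adjusted p = 2.85e-05). Several glycolytic enzymes were higher too: Gapdh stood at 610 and 582 CPM against 263 and 191 CPM (1.49), Eno1, enolase, at 267 and 262 CPM against 109 and 57.7 CPM (1.73), and Ldha, lactate dehydrogenase, at 488 and 455 CPM against 268 and 186 CPM (1.15). Others of the list, Hk1, hexokinase (0.061, adjusted p = 0.885), and Pfkp, phosphofructokinase (0.36, adjusted p = 0.313), did not pass. The lower gene was Higd1b (−0.59, adjusted p = 0.0318), which had 0.153 with DESeq2 and 0.251, 0.0940 and 0.143 without Lats2iECKO replicate 1, Lats2iECKO replicate 2 and control replicate 2. Among members with Myh11, 13 of 23 tested genes were higher and 0 lower (18 and 1 at an unadjusted p of 0.05), with a median of 1.15 against 0.013 over all genes tested there. Bnip3 rose there by 3.41, while Egln3 had no count in the 110 control cells with Myh11, which allows up to 2.73% of such cells with a count, by counting error alone and not as a limit on cells that express the gene. In members without Myh11, 1 gene of the list passed. Higd1b, lower in all members, had 0.098 (adjusted p = 0.802) in members with Myh11 and was also positive in those without it, so its direction turned in both subsets.

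The 250 bases before the start of 3 of the genes that were higher, with ACGTG on either strand in capitals (RefSeq, GRCm38.p6, given on the strand of the gene, 5′ to 3′), are these.
Egln3, chr12:54203875-54204124, minus strand: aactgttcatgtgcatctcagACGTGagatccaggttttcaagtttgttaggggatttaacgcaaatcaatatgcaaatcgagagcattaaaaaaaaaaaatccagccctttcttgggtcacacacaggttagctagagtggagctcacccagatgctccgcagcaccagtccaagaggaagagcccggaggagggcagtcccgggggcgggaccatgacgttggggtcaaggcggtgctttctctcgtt
Bnip3, chr7:138909507-138909756, minus strand: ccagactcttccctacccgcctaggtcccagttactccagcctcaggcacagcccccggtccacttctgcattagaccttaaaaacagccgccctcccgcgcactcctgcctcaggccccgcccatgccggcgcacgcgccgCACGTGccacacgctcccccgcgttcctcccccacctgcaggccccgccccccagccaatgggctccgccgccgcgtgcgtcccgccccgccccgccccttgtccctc
Ldha, chr7:46845554-46845803, plus strand: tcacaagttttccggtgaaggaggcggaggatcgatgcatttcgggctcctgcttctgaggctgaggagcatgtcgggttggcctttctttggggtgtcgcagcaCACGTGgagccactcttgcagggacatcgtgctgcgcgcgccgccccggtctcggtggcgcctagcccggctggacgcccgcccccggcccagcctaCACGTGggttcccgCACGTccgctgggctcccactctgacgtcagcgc
Egln3 held 1 match, whose first base lay 229 bases before the start. Bnip3 held it within the palindrome CACGTG, where both strands match in overlapping positions. Ldha held 2 such palindromes and a further match on the minus strand outside them, 34 bases before the start. In the same window ACGTG occurred in 16.6% of 32851 promoter entries, in 13 of the 27 genes of the list that matched an entry, in 6 of the 14 higher genes and in 2 of the 4 that were tested, matched and not higher. A match describes these letters only, the form GCGTG was not counted, and binding was not measured.

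Genes of the Notch pathway, through which endothelial ligands keep mural cells mature, were lower as a group. Of 11 tested genes 9 were lower (7 with DESeq2) and 2 did not pass, and 0 were higher in edgeR, in DESeq2 or at an unadjusted p of 0.05, with a median log2 fold change of −0.95. Notch3 (ENSMUSG00000038146, chr17:32339794-32385893 of GRCm39), the receptor of mural cells, stood at 680 and 715 CPM in Lats2iECKO and at 1365 and 1723 CPM in controls (−1.04, standard error 0.17, adjusted p = 0.00113). Of its targets, Nrarp, a feedback inhibitor of the pathway, stood at 7.77 and 5.85 CPM against 39.6 and 75.2 CPM (−2.91), and Hey2, a repressor induced by Notch, at 8.81 and 8.78 CPM against 50.4 and 45.1 CPM (−2.34), while Hes1, another such repressor, did not pass (−0.15, adjusted p = 0.529). Nrip2, a nuclear receptor partner found in vascular smooth muscle, stood at 23.3 and 15.3 CPM against 104 and 139 CPM (−2.56, adjusted p = 3.87e-05). The ligand Jag1 stood at 74.6 and 63.1 CPM against 117 and 176 CPM (−0.95), and its direction turned in members without Myh11. Among members with Myh11, 5 of 11 were lower, with Notch3 at −1.06 (adjusted p = 0.0101), Nrarp at −1.63 and Nrip2 at −1.16, while Hey2, at −1.26, did not pass (adjusted p = 0.0540). Among members without Myh11, 1 of the genes passed, and Notch3 stood at 624 and 709 CPM in Lats2iECKO against 202 and 1036 CPM in the 10 and 16 control cells, a log2 fold change of 0.36 (adjusted p = 0.802).

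The machinery of vessel tone was lower as well. Of 19 tested genes of the vasoactive channel and cGMP list, 14 were lower, 1 higher and 4 did not pass, with a median log2 fold change of −0.83. Cacnb2, a subunit of voltage-gated calcium channels, stood at 68.9 and 65.4 CPM in Lats2iECKO and at 475 and 612 CPM in controls (−2.91, standard error 0.17, adjusted p = 1.97e-06). Pde3a, which breaks down cyclic nucleotides, stood at 195 and 184 CPM against 717 and 737 CPM (−1.84), and Pde1a, of the same enzyme family, at 142 and 110 CPM against 409 and 482 CPM (−1.72). Subunits of the receptor for nitric oxide fell together, with Gucy1a1 at 140 and 125 CPM against 321 and 394 CPM (−1.32) and Gucy1b1 at 99.5 and 89.9 CPM against 200 and 288 CPM (−1.24), as did the kinase downstream of it, Prkg1 (1652 and 1701 CPM against 3406 and 4038 CPM, −1.04). The count of lower genes was 9 without Lats2iECKO replicate 1. Among members with Myh11, 10 of 19 were lower and 0 higher (13 and 0 at an unadjusted p of 0.05), and these 6 genes were among those lower, with Cacnb2 at −1.33 and Pde3a at −0.81. Without Myh11, 1 gene of the list, Cacnb2, passed (−2.61, adjusted p = 0.0425), and Pde3a, Gucy1a1, Gucy1b1 and Prkg1 lay between 0.046 and 0.21.

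**Figure D3:**
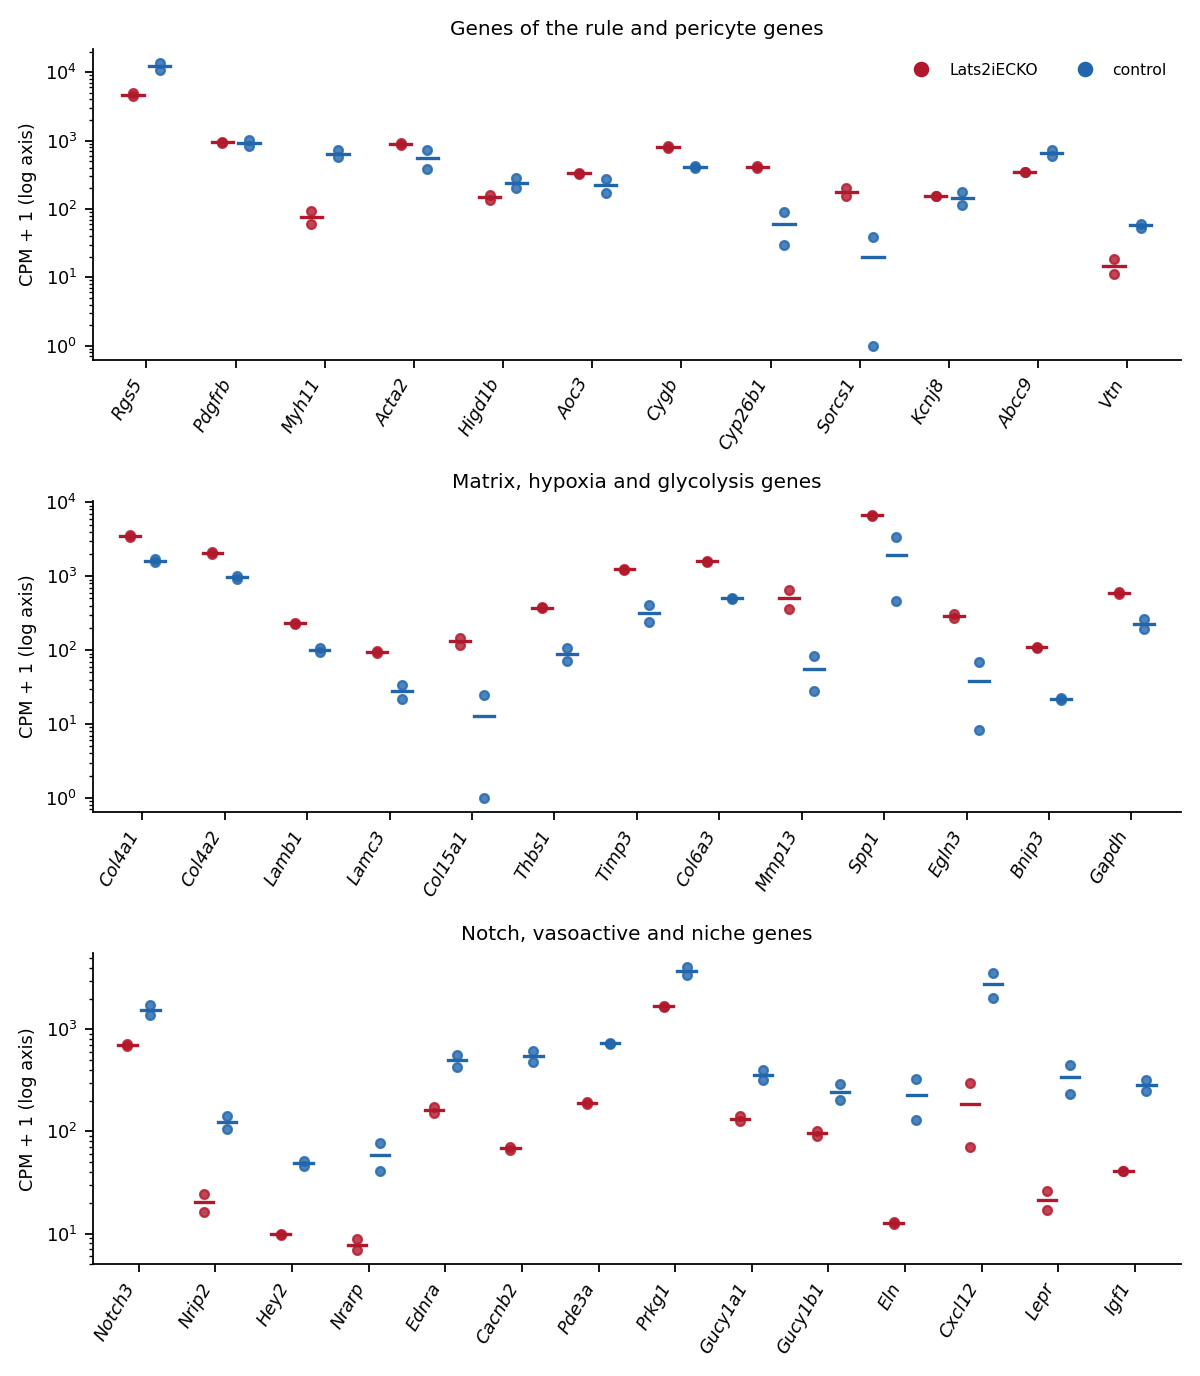
Level of named genes in Rgs5 mural cells (CPM + 1, log axis), 1 point per library and a bar at the mean of the 2 libraries of each genotype. Genotypes lie apart for most matrix, Notch and vasoactive genes, while the 2 controls lie far apart for Spp1, Egln3, Sorcs1 and Col15a1.

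Genes through which mural cells send and receive vascular signals moved in both directions. Of 19 tested genes of that list, 8 were higher and 5 lower, with a median log2 fold change of 0.37 (3 lower without either Lats2iECKO library). Angpt2, the angiopoietin of unstable vessels, stood at 426 and 376 CPM in Lats2iECKO and at 117 and 173 CPM in controls (1.59, standard error 0.19, adjusted p = 1.25e-04), while Angpt1, which stabilizes vessels, stood at 102 and 136 CPM against 227 and 261 CPM (−0.92, standard error 0.17, adjusted p = 0.00247). The 2 angiopoietins thus changed in opposite directions, though Angpt1 had −0.74 (adjusted p = 0.0612) without Lats2iECKO replicate 1. In members with Myh11, Angpt1 fell by 1.91 and Angpt2, at 0.66, did not pass (adjusted p = 0.0793). S1pr3, a receptor of sphingosine-1-phosphate, stood at 301 and 349 CPM against 124 and 103 CPM (1.61), and Itgav, an integrin chain that binds latent TGF-beta, at 209 and 232 CPM against 93.6 and 92.8 CPM (1.35). The endothelin receptor Ednra stood at 150 and 171 CPM against 430 and 559 CPM (−1.51, adjusted p = 7.47e-05), and Itga7, a laminin-binding integrin chain, at 22.3 and 26.8 CPM against 77.4 and 105 CPM (−1.75). In members with Myh11, S1pr3, Itgav and Ednra passed in the same direction, while Itga7, at −0.77, did not pass (adjusted p = 0.0883). Ednrb, the other endothelin receptor, had 24.4 and 23.0 CPM against 5.40 and 30.1 CPM and was not tested.

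Of 24 tested genes of TGF-beta and BMP signaling, 7 were higher and 4 lower, with a median of 0.28 (4 and 2 without Lats2iECKO replicate 2, 3 and 3 with DESeq2). Tgfb1 stood at 122 and 107 CPM against 48.6 and 47.6 CPM (1.35), Tgfb3 at 92.2 and 91.8 CPM against 37.8 and 57.7 CPM (1.10), and the co-receptor Eng, endoglin, at 142 and 155 CPM against 79.2 and 45.1 CPM (1.31). Among members with Myh11, 4 of 24 tested genes were higher and 1 lower. Tgfb1 passed there (1.66, adjusted p = 0.00510), while Tgfb3 (0.57, adjusted p = 0.411) and Eng (0.89, adjusted p = 0.122) did not. Of the lower genes given next for all members, Bmp5 passed there (−1.18, adjusted p = 0.00858), Tgfbr3 did not (−0.59, adjusted p = 0.152) and Ltbp1 was not tested. Ltbp1, which holds latent TGF-beta in the matrix, stood at 23.3 and 8.78 CPM against 61.2 and 108 CPM (−2.29), the co-receptor Tgfbr3 at 66.8 and 69.4 CPM against 222 and 176 CPM (−1.45), and the ligand Bmp5 had −0.68 (adjusted p = 0.00544, and 0.0696 and 0.134 without either Lats2iECKO library in turn). Only 2 genes of the PDGF list were tested, of which Pdgfrl, a relative of the receptors, was lower (−0.84, adjusted p = 0.0273), with 0.157 under DESeq2 and 0.0636 to 0.139 without Lats2iECKO replicate 1, control replicate 1 or control replicate 2.

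Targets of YAP1 and TAZ, the coactivators that LATS kinases restrain, passed the test about as often as all genes did. Of 17 tested genes, 2 were higher (11.8%, against 10.6% of all genes), 2 lower (11.8%, against 12.4%) and 13 did not pass, with a median log2 fold change of −0.13. The list also holds Yap1 and Wwtr1, the genes of the coactivators themselves, and the kinase genes Lats1 and Lats2, none of which passed. Ccn1, a matricellular protein and classical target, stood at 284 and 299 CPM in Lats2iECKO and at 139 and 123 CPM in controls (1.25, standard error 0.16, adjusted p = 1.79e-04) and rose in members with Myh11 (1.73). Its relative Ccn2 stood at 509 and 453 CPM against 461 and 130 CPM (0.77, adjusted p = 0.152), and without control replicate 1 it passed, at 1.98. Tgfb2 was the other higher gene (0.86, adjusted p = 0.0297, and 0.190 and 0.227 without Lats2iECKO replicate 2 and control replicate 1). Ajuba (−1.31) and Ptpn14 (−1.04), adaptor and phosphatase of the same pathway, were lower, with adjusted p of 0.106 and 0.168 without control replicate 2. Without control replicate 1, 7 genes of the list were lower and 3 higher, without called doublets 6 and 1, with the replicate number as a block 5 and 3, and with at least 10 Rgs5 counts 4 and 1. At an unadjusted p of 0.05, 7 were lower and 3 higher. Lats2 (−0.11, adjusted p = 0.759) and Lats1 (−0.63, adjusted p = 0.131) did not pass.

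Factors of the marrow niche were lower. Of 14 tested genes, 8 were lower, 3 higher and 3 did not pass, with a median log2 fold change of −0.99. Cxcl12 stood at 297 and 69.0 CPM in Lats2iECKO and at 2022 and 3584 CPM in controls (−3.83, standard error 0.52, adjusted p = 2.72e-04), and Lepr at 24.9 and 16.1 CPM against 232 and 446 CPM (−3.94). These define reticular stroma, whose 11 markers as a list were higher in control members, and empty droplets also held more Cxcl12 in controls (2983 and 3184 CPM) than in Lats2iECKO (1110 and 1304 CPM). With the estimated free RNA subtracted, the log2 fold change of Cxcl12 was −4.47 (standard error 1.42, adjusted p = 0.0520). Without the members that had a Lepr count, its log2 fold change was −1.22 (adjusted p = 0.0159). Igf1, insulin-like growth factor 1, stood at 40.4 and 39.7 CPM against 249 and 318 CPM (−2.70, standard error 0.17, adjusted p = 1.97e-06) and kept −2.71 without the members with Lepr. Ebf3, a transcription factor of reticular cells, stood at 127 and 119 CPM against 443 and 609 CPM (−1.98), and Kitl, stem cell factor, at 370 and 346 CPM against 846 and 955 CPM (−1.22). Igfbp7, a secreted protein of vessel walls, was among the 3 higher genes (12287 and 12651 CPM against 3949 and 4983 CPM, 1.59, adjusted p = 1.58e-05). Vcam1, an adhesion molecule, and Spp1 were the others, and Vcam1 stood at 454 and 439 CPM against 326 and 356 CPM (0.50, adjusted p = 0.0425, with 0.136 under DESeq2 and 0.324 and 0.232 without either Lats2iECKO library in turn). The direction of Vcam1 turned in members with Myh11 (−0.15, adjusted p = 0.695), in members without Myh11 and at a cut of 3 Rgs5 counts. Without the members with Lepr, 399 of 5693 genes (7.01%) were higher and 548 (9.63%) lower by the adjusted p. In these cells 8 genes of the Notch list, 14 of the vasoactive list and 5 of the niche list were lower and 13 of the fibrosis list higher. Lepr is itself a niche gene and had no count in these cells, so the niche count was set in part by the choice of cells. Counts that fell by more than 1.5 times there included those of higher genes of the TGF-beta and BMP (2), dissociation stress (8) and ribosomal (8) protein lists and of lower genes of the inflammation list (1).

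The pericyte identity list split, with 8 of 25 tested genes higher and 8 lower, and a median log2 fold change of 0.23. Sorcs1, Cygb, Aoc3 and Cyp26b1, all among the higher genes, are markers given for these cells. Most members came from Lats2iECKO libraries, so the choice of these markers may bear on their direction, which was not tested. Among members with Myh11, 4 of 25 were higher and 3 lower, with a median of 0.059. There P2ry14 (−0.73, adjusted p = 0.175) and Vtn (−0.56, adjusted p = 0.271) did not pass. Among members without Myh11, 0 of 23 were higher and 0 lower, and the directions of Abcc9 and Ebf2 turned. Without Lats2iECKO replicate 1 the counts were 5 and 5, and without replicate 2 they were 4 and 4. The split moved with the choice of cells, with 13 higher and 5 lower at a cut of 3 Rgs5 counts and 5 higher and 10 lower without called doublets. Sorcs1 (3.57, standard error 0.52, adjusted p = 4.74e-04, and 0.460 with DESeq2), Cyp26b1 (2.99, standard error 0.31, adjusted p = 4.45e-05) and Rgs4, a regulator of G protein signaling (357 and 360 CPM against 95.4 and 168 CPM, 1.58), were the higher genes of lowest p. Sorcs1 had 58.2 and 81.4 CPM in Lats2iECKO members with Myh11 and no count in the control members with Myh11. P2ry14, a nucleotide sugar receptor (14.5 and 11.3 CPM against 52.2 and 72.7 CPM, −2.15), Vtn, vitronectin (17.6 and 10.0 CPM against 52.2 and 60.2 CPM, −1.94), and Ebf2, a transcription factor (193 and 202 CPM against 402 and 431 CPM, −0.97), were the lower ones. Cygb was higher (1.08, adjusted p = 6.45e-04), and Aoc3 passed at 0.69 (adjusted p = 0.0263), with 0.103 under DESeq2 and 0.0773 to 0.0946 without Lats2iECKO replicate 1, Lats2iECKO replicate 2 or control replicate 1. The subunits of a potassium channel of pericytes did not move alike: Abcc9 stood at 350 and 341 CPM against 598 and 727 CPM (−0.83, adjusted p = 0.00413, and 0.0543 and 0.0719 without either Lats2iECKO library in turn) and Kcnj8 at 154 and 153 CPM against 112 and 176 CPM (0.23, adjusted p = 0.398).

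Other Rgs genes split too, with 3 of 7 higher and 2 lower. Rgs6 had the largest drop, from 180 and 155 CPM in controls to 26.4 and 23.4 CPM (−2.66, adjusted p = 2.46e-06), and Rgs7bp, an Rgs binding protein, had −0.80 (adjusted p = 0.0102, and 0.192 without Lats2iECKO replicate 2). Rgs3 (0.84) and Rgs2 (1.00) were higher beside Rgs4, with adjusted p of 0.0537 and 0.107 under DESeq2, and Rgs2 had 0.134 and 0.125 without Lats2iECKO replicate 2 and control replicate 2. In the retinoid list, Aldh1a1, which makes retinoic acid, stood at 19.2 and 10.2 CPM against 119 and 223 CPM (−3.43) where Cyp26b1, which breaks it down, was higher, and Rarres2, chemerin, had 0.60 (adjusted p = 0.0367, and 0.168 and 0.223 without either Lats2iECKO library in turn). Genes of inflammation and chemokines were mostly lower where they passed, 5 of 14 against 1 higher, among them the complement gene C4b (9.58 and 6.90 CPM against 92.7 and 102 CPM, −3.50), the interferon-induced Ifitm1 (24.9 and 15.9 CPM against 106 and 171 CPM, −2.64) and the antigen-presenting H2-K1 (310 and 205 CPM against 598 and 847 CPM, −1.38). Without control replicate 1, 8 genes of that list were lower, and without Lats2iECKO replicate 2, 3 were. The higher one was the complement inhibitor Serping1 (0.62, adjusted p = 0.0373, and 0.187 and 0.181 without either Lats2iECKO library in turn).

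Contractile genes, which travel with the rule, went both ways, with 5 of 19 tested higher and 7 lower. The split depends on the rule: among members with Myh11, 6 were higher and 1 lower, and with contractile smooth muscle cells counted as members the 15 of 21 that passed were all lower. Smtn, smoothelin, stood at 46.6 and 48.9 CPM against 14.4 and 17.6 CPM (1.70), Csrp1, a muscle LIM protein, at 280 and 250 CPM against 99.0 and 148 CPM (1.23), and Myl6, a myosin light chain, had 0.87 (adjusted p = 0.00242, and 0.0584 without Lats2iECKO replicate 1). The counts were 3 higher without Lats2iECKO replicate 1, 4 lower without Lats2iECKO replicate 2, and 9 higher and 4 lower without control replicate 2. Tagln, transgelin, stood at 944 and 817 CPM against 211 and 594 CPM (1.25, adjusted p = 0.0195, and 0.302 with DESeq2) and had −0.54 once contractile smooth muscle cells were counted as members. Map3k7cl (11.4 and 8.78 CPM against 57.6 and 47.6 CPM, −2.31), Synpo2, an actin-binding protein (52.8 and 63.5 CPM against 142 and 130 CPM, −1.12), and Mylk, myosin light chain kinase (261 and 258 CPM against 477 and 627 CPM, −0.98), were lower.

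Genes that respond to cell dissociation were higher as a list, 14 of 19 with a median log2 fold change of 0.78 (9 with DESeq2 and 8 without Lats2iECKO replicate 2), and Ier2 (1.36), Klf2 (1.10) and Junb (1.09) had the lowest p. They were also higher in contractile smooth muscle cells, 16 of 20 against 3 lower (background 9.56% and 9.81%), and 15 of 20 were higher in members with Myh11. Ribosomal protein genes were higher in 33 of 78 (17 with DESeq2) and lower in 0 (59 and 0 at an unadjusted p of 0.05), with a median of 0.49, once 3 S6 kinases whose symbols match the list's pattern were set aside, with Rpl29 (0.96) and Rpl13 (0.74) among those of lowest p. Beside them stood Rps3a3 (358 and 270 CPM against 0.360 and 67.7 CPM), a processed copy in the list that shares reads with its parent gene and is uncertain. That count for the list was 74 without control replicate 1, 4 without Lats2iECKO replicate 1 and 2 without Lats2iECKO replicate 2, which also took Rpl13 past the threshold (adjusted p = 0.102 and 0.0639). Of 77 genes of oxidative phosphorylation, 8 were higher (10.4%, near the 10.6% of all genes, and 1 with DESeq2), with Atp5g1 (0.84), Ndufa12 (0.75) and Cox5a (0.69) of lowest p, and the count was 18 without control replicate 1 and 1 without either Lats2iECKO library. Of 4 tested cell cycle genes 0 passed in edgeR (also 0 at an unadjusted p of 0.05 and 0 with DESeq2), and under the alternatives at most 1 was higher (with free RNA subtracted, among others) and at most 2 lower (without control replicate 2). The part of dissociation or RNA quality in the other differences was not tested.

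Beyond the lists, the genes of largest change with both libraries of one genotype above both of the other held further receptors and secreted proteins. F2r, the thrombin receptor, stood at 214 and 249 CPM in Lats2iECKO and at 19.8 and 25.1 CPM in controls (3.49, standard error 0.23, adjusted p = 1.97e-06). Plvap, a protein of endothelial openings, stood at 111 and 72.3 CPM against 10.8 and 5.02 CPM (3.52), while the endothelial marker Emcn, which falls outside the naming rule and was chosen after its values were seen, stood at 17.1 and 13.4 CPM against 104 and 85.3 CPM (−2.56). Endothelial markers thus did not move as 1 list. Sema7a, a membrane semaphorin (3.02), Cotl1, an actin-binding protein (2.96), Apbb1ip, an integrin activator (2.95), Bok, of the Bcl2 family (2.80), and Tmem119, a membrane protein of osteoblasts (2.67), were higher, as was Doxl1 (3.02). Among the lower genes, Ildr2 stood at 5.70 and 2.09 CPM against 81.0 and 100 CPM (−4.45), C2, a complement protease, at 3.63 and 1.25 CPM against 47.7 and 63.9 CPM (−4.40), and Thsd7a, a membrane protein with thrombospondin domains, at 11.4 and 8.36 CPM against 151 and 253 CPM (−4.22). Bglap, osteocalcin, a main product of osteoblasts, also fell (−3.87), at 255 and 2071 CPM in the controls, which lay far apart, against 69.5 and 76.4 CPM. Droplets of 1 to 100 UMIs held more of the 10 osteoblast genes other than Spp1 in controls (27495 and 28179 CPM) than in Lats2iECKO (13046 and 10442 CPM). The cause of the fall of Bglap was not tested. Chrdl1, a BMP antagonist (−3.81), the glycosyltransferase Galnt16 (−3.72), the transporter Slc47a2 (−3.69), the phosphodiesterase Gdpd2 (−3.62), Nmnat2, which makes NAD (−3.36), and Lurap1l (−3.17) were lower too.

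**Figure D4:**
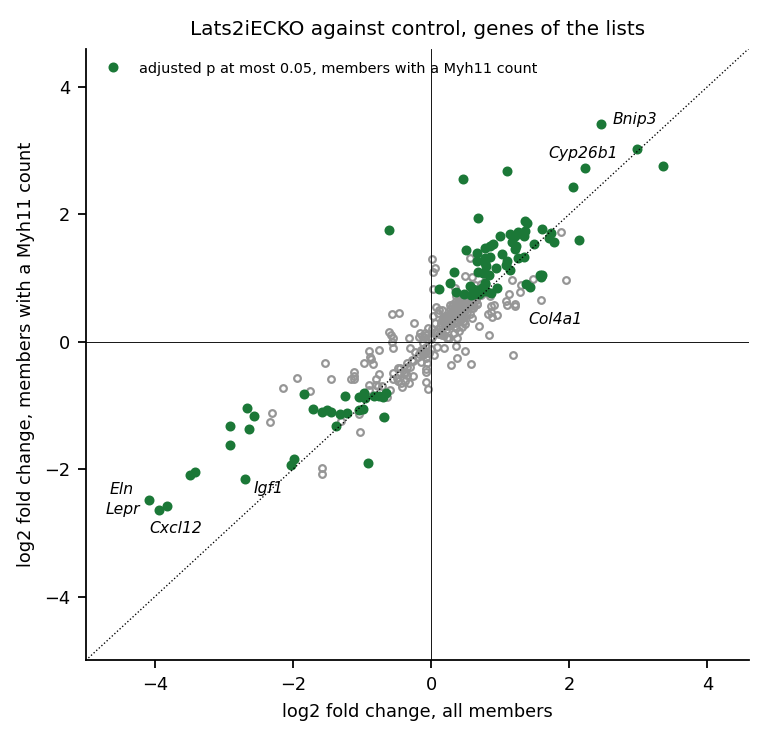
Log2 fold change of Lats2iECKO over control for genes of the lists in all members (horizontal) and in members with a Myh11 count (vertical), with the line of equal change dotted. Filled points passed an adjusted p of 0.05 among members with Myh11; most of these lie in the same direction on both axes, with Fn1 an exception at −0.60 and 1.75, while Col4a1 passed only in all members. Sorcs1 and Egln3, at 0 in the control members with Myh11, and genes not reported here are left out.

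Rgs5 mural cells were then set beside the contractile smooth muscle cells of the same libraries. With the library as a block, 539 of 6174 genes (8.73%) were higher and 528 (8.55%) lower in Rgs5 mural cells. The lower genes of largest fold were those that travel with the rule, such as Cnn1, calponin (−9.62), and Pln, phospholamban (−6.87), and Pgm5 (−7.16), Asb2 (−6.26), the potassium channel Kcna5 (−6.11) and Perp (−5.91). Each of these had at most 12.4 CPM in any library of Rgs5 mural cells, where 3 counts are between 1.25 and 7.52 CPM, so the sizes of these folds depend on the fit. The higher genes of largest fold over both genotypes were Hsd11b1, which activates glucocorticoids (6.91), Cd300lg, a receptor known from capillaries (5.46), Egln3 (4.93), Tmem273 (4.66) and Spp1 (4.45). Dach1 (4.35), Fcer1g (4.32), Doxl1 (4.23), H2-M9 (3.88) and Pla1a (3.75) followed. Col4a1 was 1.55 higher (adjusted p = 0.00160), and Notch3 had −0.049 (adjusted p = 0.874). Such values average over genotypes that differ in members. At 2000 UMIs per cell, Notch3 was detected in 81.7% to 83.5% of smooth muscle cells in the 4 libraries, and in 76.7% and 71.5% of Lats2iECKO and 79.7% and 95.4% of control members. Egln3 was detected in 29.6% and 32.5% of Lats2iECKO members and in at most 3.08% of control members, against at most 1.64% of smooth muscle cells. Spp1 was detected in 14.5% of members against 12.8% of smooth muscle cells in control replicate 1, and in 24.6% against 11.7% in control replicate 2.

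The genotype difference itself was not the same in the 2 classes. In contractile smooth muscle cells 83 of 4667 genes (1.78%) were higher and 43 (0.921%) lower at both thresholds. A test of the difference between the classes found 117 of 6188 genes (1.89%) with a larger log2 fold change in Rgs5 mural cells and 218 (3.52%) with a smaller one, at an adjusted p of at most 0.05. With DESeq2 these were 42 and 94. Timp3 differed by 2.27 (adjusted p = 0.00134) and Thbs1 by 2.00 (adjusted p = 0.00104), and in contractile smooth muscle cells these had log2 fold changes of −0.16 and 0.21. On the lower side Nrarp differed by −3.40 (adjusted p = 0.00146), Nrip2 by −2.50, Cacnb2 by −2.48 and Pde3a by −1.82, and in contractile smooth muscle cells they had 0.48, −0.052, −0.40 and −0.0016. Some lists moved there too: 7 of 20 vasoactive and 5 of 10 niche genes were lower, against 1 and 2 higher, and 9 of 20 hypoxia and glycolysis genes were higher. Of 25 fibrosis genes 8 were lower and 4 higher there, and of 18 pericyte identity genes 8 were higher and 3 lower (background 9.81% lower and 9.56% higher). Of the lists, 6 of 11 Notch genes and 11 of 24 vasoactive genes had a smaller log2 fold change in Rgs5 mural cells. Of 25 pericyte identity genes 6 had a smaller and 1 a larger one, and of 14 niche genes 3 had a smaller and 2 a larger one. In turn, 6 of 40 fibrosis genes and 5 of 17 basement membrane genes had a larger one, against 2 and 1 with a smaller one. Of the hypoxia and glycolysis genes 5 of 23 had a larger and 1 a smaller difference, and of the dissociation genes 1 of 20 a larger one. The classes were cut by Myh11 and Acta2, and the share of members without Myh11 differed between genotypes, so a change within cells and a change in which cells are members cannot be told apart here.

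**Figure D5:**
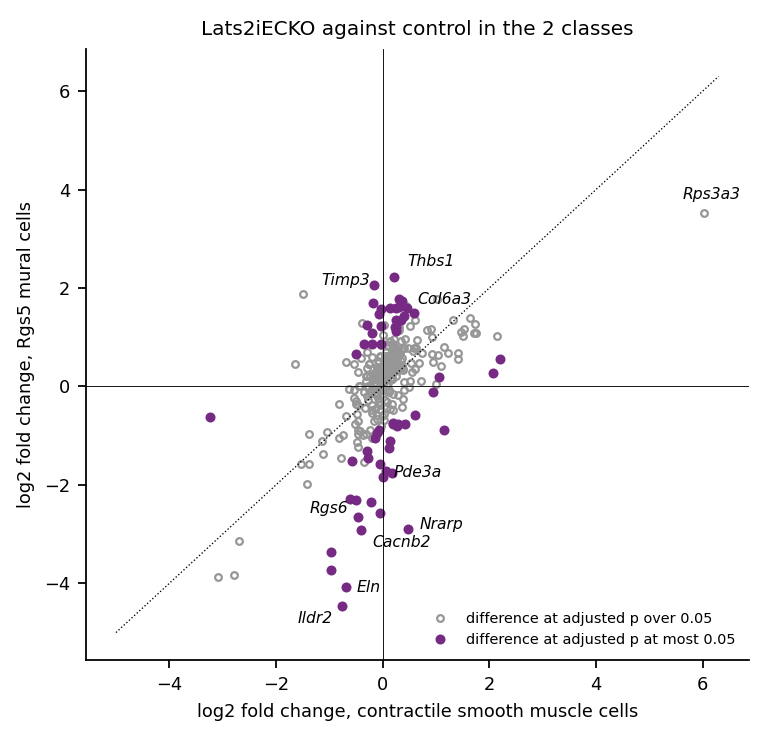
Log2 fold change of Lats2iECKO over control in contractile smooth muscle cells (horizontal) and in Rgs5 mural cells (vertical), for named and listed genes tested in both, with the line of equal change dotted. Filled points are genes whose 2 log2 fold changes differed at an adjusted p of 0.05; many lie near 0 on the horizontal axis and far from 0 on the vertical one.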

How the data were processed

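The deposited files hold, per the submitters' processing notes and the study's methods, expected counts of UMIs per gene and barcode that the authors made with cutadapt 3.5 and STARsolo 2.7.10a on mm39 (GRCm39) with GENCODE genes. Reads of several genes were shared out by expectation maximisation, so counts need not be whole. They were used as deposited, for 53703 features in 4 libraries, 2 per genotype.

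Barcodes with at least 1000 UMIs, 800 genes, under 15% mitochondrial and under 5% hemoglobin counts were kept. Doublets were scored with scanpy 1.11.5. In each library the barcodes of highest score were called, up to the number that a rate of 0.8% per 1000 barcodes gives, and were kept too. Members were summed per library and the sums rounded and tested with edgeR 4.0.16 (quasi-likelihood, TMM, Benjamini-Hochberg) in R 4.3.3, on genes passing filterByExpr and found in at least 20% of the cells of a genotype. Calls needed an adjusted p not above 0.05 and a change of 2-fold or more, and lists were counted by the adjusted p. The standard errors printed are the size of the log2 fold change divided by the square root of the edgeR F statistic. They restate that test and were not estimated separately. DESeq2 1.42.0 was an alternative. With scanpy, Python 3.11.15, numpy 2.4.6, scipy 1.17.1 and pandas 2.3.3 were used. The script was tested on simulated data. Library depths limit precision as given with the shares, and intervals cover counting error only.

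Free RNA was estimated as the median ratio of other cell types' markers in members to their level in droplets of 1 to 100 UMIs. Positions are from GENCODE on GRCm39.

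The members and lists were chosen with earlier results of these data known. Genes were named by rule: the genes of the gate and its 6 markers, the 15 higher and 15 lower called genes of largest fold with libraries that did not overlap and at least 50 CPM, the 3 of lowest p in each direction in 19 lists, the 10 of largest fold in each direction against smooth muscle cells, and Lats2, Lats1, Ednra, Ednrb, Gli1, Tagln, Fn1 and Thbs1. Timp3, Col12a1, Col1a1, Col4a2, Lama2, Ldha, Notch3, Jag1, Gucy1a1, Gucy1b1, Prkg1, Ccn2, Kitl, Abcc9, Kcnj8, Hes1, Hk1, Pfkp and Emcn fall outside it and were chosen after their values were seen. Some genes that the rule picks are not reported here, though they are counted in the lists.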

Additional observations from a re-analysis of the deposited data

Results flagged for a closer look

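A test of whether the genotype difference of Rgs5 mural cells differed from that of contractile smooth muscle cells picked out 117 genes (1.89%) whose log2 fold change was larger in Rgs5 mural cells and 218 (3.52%) where it was smaller. With DESeq2 these were 42 and 94. Among the genes named for the size of their change in Rgs5 mural cells, those with a larger log2 fold change there, given by the difference between the classes, were Mmp13 (5.85), Plvap (3.75), Apbb1ip (3.64), Col15a1 (2.77) and Tmem119 (2.61). Those with a smaller one were Ildr2 (−3.70), Slc47a2 (−3.54), Eln (−3.33), C2 (−3.25), Lurap1l (−2.97), Aldh1a1 (−2.85), Galnt16 (−2.74) and Nmnat2 (−2.38). Of these, 4 were measured well enough in both classes to be tested in each, and their log2 fold changes in smooth muscle cells were −0.75 for Ildr2, −0.70 for Eln and −0.97 for both Galnt16 and Nmnat2. The others, with Mmp13, Plvap, Apbb1ip, Col15a1 and Tmem119 among them, had too few counts in smooth muscle cells for a test there, so the sizes of their differences depend on the fit and give no order. Without control replicate 1 the differences of Apbb1ip, Plvap and Tmem119 had adjusted p of 0.106, 0.102 and 0.129. Without Lats2iECKO replicate 2 those of C2, Slc47a2 and Lurap1l had 0.620, 0.275 and 0.0545, and C2 also had 0.0615 and 0.0568 without either control library in turn.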

How the results depend on the processing

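The ratio of shares stayed above 1 under all 15 alternatives. It was 3.82 with at least 3 Rgs5 counts, 4.24 with at least 10, 2.76 without the exclusion of smooth muscle cells, 3.96 with a stricter barcode filter 17.9 for members without Myh11, 4.70 without called doublets and 4.29 to 4.53 with 1 library left out. Alternatives chosen after seeing the data gave 1.22 for members with Myh11 and 6.10 without members with Lepr.

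Genes higher and lower in members numbered 38 and 124 of 6504 tested without Myh11, 178 and 201 of 5657 with Myh11, and 128 and 199 of 1747 after thinning. The main test had 281 and 328 of 5876. Without the filter on low counts 508 were lower, and against smooth muscle cells 1092 were higher and 1027 lower (524 to 583 and 499 to 545 with 1 library left out). For the difference between the classes, DESeq2 gave 42 and 94, no filter 215 larger, and 1 library left out 97 to 148 larger and 135 to 217 smaller, the 135 without Lats2iECKO replicate 2.

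Same-numbered libraries did not deviate together (correlation −0.012 over genes). With 2 libraries per genotype this cannot show whether the numbers pair them. With the replicate number as a block 294 genes were higher and 335 lower, 142 and 242 for the difference between the classes, and Fn1 had 0.42.

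Of 118 named genes that passed, 97 also passed with DESeq2, 74 with Myh11 only and 25 without Myh11. Some of the 118 were not tested in the Myh11 subsets, so the remainder there is not a count of genes that failed. Log2 fold changes of opposite sign were as follows. Without Myh11 (10 and 16 control cells) they were Abcc9 0.82, Bmp5 0.64, Ccn2 −0.087, Ebf2 0.13, Gucy1a1 0.21, Gucy1b1 0.14, Higd1b 1.23, Jag1 0.48, Klf2 −0.32, Lats1 0.15, Notch3 0.36, Pde3a 0.046, Postn 0.40, Prkg1 0.18, Rgs7bp 0.82 and Vcam1 −0.35. With Myh11 they were Cd300lg −0.56, Dach1 −0.63, Fn1 1.75, Higd1b 0.10, Lama2 −0.21 and Vcam1 −0.15. With smooth muscle cells kept they were Aoc3 −0.063, Csrp1 −0.24, Myl6 −0.10 and Tagln −0.54. Col1a1 and Col1a2 had 1.33 and 0.49 with Rgs5 set per 10000 UMIs, 1.46 and 0.61 without doublets, and 0.45 and 0.091 without members rich in skeletal genes. With 1 library left out, Kcnj8 ran from −0.10 (without control replicate 1) to 0.55, Fn1 from −1.52 to 2.56 (without control replicate 1) and Lats2 from −0.34 to 0.079 (without control replicate 2). Kcnj8 had −0.022 without doublets, Lats2 0.069 without members with Lepr, and Vcam1 −0.55 with at least 3 Rgs5 counts. The cause of these changes was not tested.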
